A study of Homo sapiens with 12 samples.

Results

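Homologous recombination and Fanconi repair were followed through 8 genes of the deposited table, BRCA1, BRCA2, RAD51AP1, BLM, EXO1, FANCD2, FANCI and PIF1, chosen by name and found by Ensembl identifier among 20595 genes. The choice was made with earlier results of these data known. RNA was sequenced from A549 (p53 WT) and H1792 (p53 mutant), human lung adenocarcinoma (LUAD) cell lines that the study describes as MDM2 amplified. The study is not uniform on p53: a sentence on its sequencing swaps the status of the lines. Its caption on wound healing also gives A549 as p53 mutant. The assignment used in most of its text was followed here. Cells were kept for 48 h in DMSO, the vehicle, or in 1 μM RG7112, a nutlin family compound that blocks the binding of MDM2 to p53. Each of the 4 groups (A549 DMSO, A549 RG7112, H1792 DMSO and H1792 RG7112) had 3 replicates, 12 samples in all. The column names of the table give the dose as 0.1 μM, against 1 μM in the sample labels and the methods. Each p53 status was represented by 1 cell line, so p53 status and all other differences between the lines cannot be told apart. Nothing in the sources used here says that replicates were separate cultures, so p-values measure the spread between these samples, which may be technical.

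Homologous recombination repairs a broken chromosome by copying an intact sister, and it works in S and G2 phase. The broken end is first resected to a 3′ single strand, strand exchange proteins are then loaded on it with the help of BRCA1 and BRCA2, and the joined molecules are finally taken apart by helicases and nucleases. The Fanconi anemia pathway unhooks crosslinks between the DNA strands, and its central step is the ubiquitination of the FANCD2 and FANCI pair. In epithelial tumor cells many of these genes are transcribed most in dividing cells. MDM2 holds p53 down, and active p53 induces CDKN1A, an inhibitor of the cell cycle.

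The deposited values were estimated counts, printed here as CPM, the counts of a gene scaled to a common library size, after TMM normalization. Totals ranged from 2011916 to 6218825 counts per sample, and 3 counts stood for 0.483 to 1.39 CPM, which covers counting error only. KRT8 and KRT18, keratins of epithelial cells, had counts in all 12 samples (KRT8 from 594 CPM), but EPCAM reached at most 6.42 CPM and CDH1 at most 1.05 CPM in H1792. The lung lineage factor NKX2-1 was at 0 in 11 samples, and NAPSA, of the same list, had up to 5.81 CPM and was at 0 in 1. The blood markers CD3E and LYZ were at 0 in all 12, whereas CD68, a lysosomal protein abundant in macrophages, had 7.37 to 106 CPM. The sum of the 5 blood markers was 10.7 to 34.4 CPM in A549 DMSO and 43.2 to 106 CPM in A549 RG7112, where the members were lower, and its part in their response was not tested. CD68 itself was not called in A549 (log2 fold change 1.61, edgeR adjusted p = 0.102). The difference of its responses to RG7112, A549 minus H1792, was 2.18 (edgeR interaction test, adjusted p = 0.0384), called without a fold change threshold. In DMSO the log2 difference of CD68 between the lines was 0.62, without a call. Of the fibroblast markers, the collagen COL1A2 reached 917 to 1090 CPM in H1792 and at most 1.38 CPM in A549. COL1A1 had 192 to 287 CPM in H1792, but DCN, LUM and PDGFRB reached at most 1.26, 0.238 and 6.43 CPM there. CDKN1A was measured at 44.2, 43.5 and 24.0 CPM in A549 DMSO and at 211, 185 and 960 CPM in A549 RG7112, where the third replicate stood apart. In H1792 it was at 5.75, 2.40 and 13.9 CPM with DMSO and at 10.0, 10.4 and 3.81 CPM with RG7112. The log2 fold change of CDKN1A in A549, 3.58, was called in the main fit. It was not called without DMSO replicate 1, 2 or 3 (edgeR adjusted p = 0.0901, 0.0960 and 0.0867). The call was also lost with the replicate block (0.0672) and with the replicate block and GC correction (0.0601). MDM2 itself rose in A549 (log2 fold change 2.99 ± 0.45 SE, edgeR quasi-likelihood adjusted p = 0.0102; 0.0534 without DMSO replicate 2) and had a log2 fold change of -0.05 in H1792 (adjusted p = 0.928).

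The start regions of the members are shown because the members moved together in A549. RefSeq (GRCh38.p14) held 9 start regions for 7 members, each of 300 bases around an annotated start, and FANCI had no entry. They were searched on both strands for letters that were chosen after the responses were known. The E2F site (TTTCCCGC, TTTCGCGC, TTTGCCGC or TTTGGCGC) was found in 2 of the 9, in EXO1 and FANCD2, and in 3.31% of 35116 start regions. The CHR element (TTTGAA) was found in PIF1 only among the 9, and in 15.2% of all. The variant TTTAAA was found in 3 of the 9 and in 12.2% of all, CCAAT in 4 of the 9 and in 34.6% of all, and the shorter TTCCCGC, which lies inside TTTCCCGC, in 4 of the 9 and in 6.55% of all. The 3 regions with a complete E2F or CHR match follow, 5′ to 3′ on the strand of the gene. Capitals mark TTTCGCGC in EXO1 (chr1:241847954-241848253, plus strand), the reverse complement of TTTCCCGC in FANCD2 (chr3:10026187-10026486, plus strand), and TTTAAA and TTTGAA in PIF1 (chr15:64825598-64825897, minus strand).
EXO1: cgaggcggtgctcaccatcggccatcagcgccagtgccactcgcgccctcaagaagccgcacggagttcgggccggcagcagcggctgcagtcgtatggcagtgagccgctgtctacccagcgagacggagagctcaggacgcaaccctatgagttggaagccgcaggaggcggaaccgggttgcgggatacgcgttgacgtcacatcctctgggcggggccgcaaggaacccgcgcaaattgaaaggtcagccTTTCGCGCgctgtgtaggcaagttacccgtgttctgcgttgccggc
FANCD2: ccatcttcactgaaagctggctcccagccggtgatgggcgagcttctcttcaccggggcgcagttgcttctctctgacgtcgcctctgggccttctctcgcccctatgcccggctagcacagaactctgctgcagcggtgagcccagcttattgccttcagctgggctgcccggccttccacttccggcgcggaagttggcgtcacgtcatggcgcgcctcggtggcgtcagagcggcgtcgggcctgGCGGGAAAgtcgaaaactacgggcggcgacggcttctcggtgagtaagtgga
PIF1: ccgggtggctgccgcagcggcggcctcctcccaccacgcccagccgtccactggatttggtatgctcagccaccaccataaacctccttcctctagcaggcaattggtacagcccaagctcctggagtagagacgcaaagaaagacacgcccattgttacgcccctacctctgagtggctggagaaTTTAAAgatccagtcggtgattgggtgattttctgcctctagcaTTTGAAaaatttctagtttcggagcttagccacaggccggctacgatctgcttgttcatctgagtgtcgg
A match describes letters and not binding. The BRCA2 region held none of these letters, which says nothing beyond this window.

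The first question was whether RG7112 changed the members in A549. All 7 members that could be tested were lower with RG7112, by 6.96-fold for FANCD2 to 52.3-fold for PIF1, and none of these 7 overlapped between treatments. A gene was called when its edgeR adjusted p was under 0.05 and its log2 fold change beyond 1 in size. By this rule 7 of 7 were called lower, against 3.01% of the 10739 genes tested, and non-overlap in this direction was met by 15.4% of genes. Since the members were chosen with earlier results known, 7 of 7 describes them and is no independent test. BRCA2 was too low to be tested. None was called higher, against 3.18% of genes. In bulk samples fewer dividing cells and less RNA per cell cannot be told apart.

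Among the genes that prepare the broken end, EXO1 (ENSG00000174371; GRCh38 chr1:241847967-241895148, plus strand) encodes an exonuclease of long-range resection. It was measured at 15.7, 17.6 and 19.8 CPM with DMSO and at 2.25, 0.464 and 0.830 CPM with RG7112. Its log2 fold change was -3.73 ± 0.50 (SE, n = 3 per group; edgeR adjusted p = 0.00607). BLM (ENSG00000197299; chr15:90717327-90816165, plus strand), the helicase mutated in Bloom syndrome, acts in resection and in the dissolution of joined molecules. Its 3 DMSO samples held 16.0, 14.8 and 21.1 CPM, against 2.41, 1.86 and 1.38 CPM with RG7112. The log2 fold change of BLM was -3.17 ± 0.36 (adjusted p = 0.00319). For both genes the highest RG7112 sample lay far under the lowest DMSO sample.

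BRCA1 (ENSG00000012048; chr17:43044295-43170245, minus strand), which promotes resection and strand exchange, was also lower in A549. It was measured at 74.3, 69.5 and 64.7 CPM with DMSO and at 11.3, 6.96 and 11.1 CPM with RG7112. The log2 fold change was -2.83 ± 0.23 (edgeR adjusted p = 0.000929). NBR2 overlaps it on the other strand, and whether counting used strand is not given in the sources used here. RAD51AP1 (ENSG00000111247; chr12:4538798-4560048, plus strand), a DNA-binding factor of strand exchange, was measured at 7.68, 4.54 and 10.2 CPM with DMSO. With RG7112 it had 3, 0 and 2 counts in the 3 samples, each at or under the floor of 3 counts. Summed over replicates, 92 counts stood against 5, a 16.9-fold ratio with a 95% counting interval of 7.002 to 53.4. The fitted log2 fold change of -4.14 ± 0.68 (adjusted p = 0.0126) depends on the prior count.

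BRCA2 (ENSG00000139618; chr13:32315474-32400266, plus strand), a mediator of strand exchange, was close to absent from the table in both cell lines. It had 4 counts in all 12 samples, 2 of them in the first A549 DMSO replicate, 1 in the third H1792 DMSO replicate and 1 in the second H1792 RG7112 replicate. Both groups lay under the floor in every comparison, so no fold is given, and no response of BRCA2 could be measured. BRCA1 had 901 counts over the A549 DMSO libraries. Whether the low counts of BRCA2 follow from the way transcripts were summed to genes was not tested.

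FANCD2 (ENSG00000144554; chr3:10026414-10101930, plus strand) and FANCI (ENSG00000140525; chr15:89243949-89317261, plus strand) encode the ubiquitinated pair of the Fanconi pathway. FANCD2 was measured at 36.2, 30.4 and 42.4 CPM with DMSO and at 4.67, 6.03 and 5.26 CPM with RG7112. Its log2 fold change was -2.80 ± 0.27 (edgeR adjusted p = 0.00183). FANCI was measured at 32.9, 10.3 and 28.99 CPM with DMSO and at 1.45, 2.78 and 3.88 CPM with RG7112. Its second DMSO replicate lay nearer to the treated samples than to the other DMSO replicates. The log2 fold change was -3.20 ± 0.60 (adjusted p = 0.0207). FANCD2OS lies opposite FANCD2 and POLG opposite FANCI.

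PIF1 (ENSG00000140451; chr15:64815632-64825668, minus strand), a helicase that unwinds G-quadruplexes and aids DNA synthesis during recombination, showed the largest change of the 7. It was measured at 14.1, 39.8 and 41.1 CPM with DMSO, the first replicate being the low one, and at 0.644, 0.928 and 0.277 CPM with RG7112. The treated samples held 4, 2 and 1 counts. The ratio of summed counts, 440 against 7, was 57.9-fold with a counting interval of 27.9 to 145, and the fitted log2 fold change was -5.71 ± 0.61 (edgeR adjusted p = 0.00271).

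**Figure D1:**
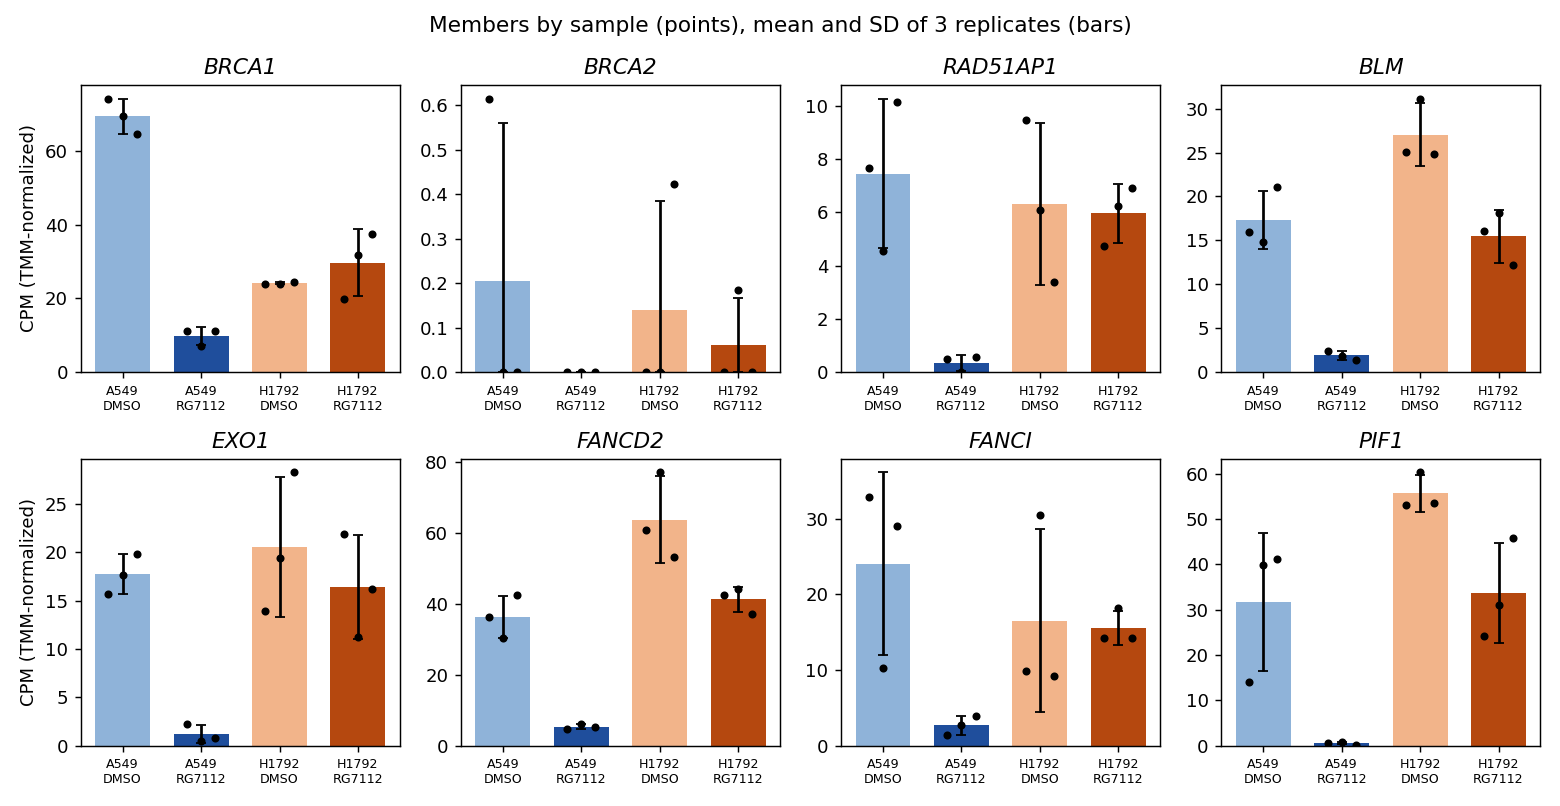
CPM of the 8 members in each group, linear axes from 0 with a scale of their own. Points are the 3 replicates, bars their mean and error bars the SD; the A549 RG7112 points lie under all A549 DMSO points for 7 members, and BRCA2 is near 0 throughout.

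The 7 calls in A549 were also made by DESeq2. Of the 7, FANCI and RAD51AP1 depended on single samples. FANCI was not called without DMSO replicate 1 or 3 (adjusted p = 0.0741 and 0.0608) or without RG7112 replicate 1 or 2 (0.0771 and 0.0756). RAD51AP1 was not called without the first DMSO or the first RG7112 replicate (0.0551 and 0.0633). Without the third replicate of both treatments, which held the high CDKN1A sample, 5 of 7 were called, and FANCI (log2 fold change -3.47, adjusted p = 0.0624) and RAD51AP1 (-4.08, adjusted p = 0.0531) were not.

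The same comparison in H1792 asked whether the members responded where p53 is mutated. None of the 7 was called by edgeR or by DESeq2, against 4.34% of 9914 genes called lower and 10.3% called higher. BLM, FANCD2 and PIF1 were lower without overlap between treatments, which 24.2% of genes met in this direction. For these 3 the exact two-sided permutation test gave p = 0.1, the smallest that 3 against 3 allows.

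BLM in H1792 was measured at 25.0, 31.1 and 24.9 CPM with DMSO and at 16.1, 18.1 and 12.2 CPM with RG7112. Its log2 fold change was -0.83 (95% interval -1.33 to -0.33; edgeR adjusted p = 0.0238), short of the fold change threshold. FANCD2 was measured at 60.9, 77.1 and 53.1 CPM with DMSO and at 42.4, 44.2 and 37.2 CPM with RG7112. Its log2 fold change was -0.65 (interval -1.04 to -0.27; adjusted p = 0.0227). Genes under the adjusted p alone and lower made up 16.5% of those tested. PIF1 was measured at 53.1, 60.3 and 53.5 CPM with DMSO and at 24.2, 31.0 and 45.7 CPM with RG7112, with a log2 fold change of -0.75 (interval -1.32 to -0.17; adjusted p = 0.0524).

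The other 4 members overlapped between treatments in H1792. BRCA1 was measured at 24.0, 24.0 and 24.4 CPM with DMSO and at 19.7, 31.7 and 37.6 CPM with RG7112. Its log2 fold change was 0.28, with an interval of -0.32 to 0.88 that leaves out a fall of the size seen in A549. RAD51AP1 was measured at 9.48, 6.10 and 3.37 CPM with DMSO and at 4.74, 6.23 and 6.91 CPM with RG7112 (log2 fold change -0.11, interval -1.11 to 0.88). EXO1 was measured at 13.9, 19.4 and 28.2 CPM with DMSO and at 21.8, 11.2 and 16.2 CPM with RG7112 (log2 fold change -0.34, interval -1.18 to 0.50). FANCI was measured at 9.82, 30.5 and 9.27 CPM with DMSO, where the second replicate was high, and at 14.2, 18.1 and 14.3 CPM with RG7112 (log2 fold change -0.13, interval -1.26 to 1.00). The edgeR adjusted p was 0.426 for BRCA1, 0.855 for RAD51AP1, 0.483 for EXO1 and 0.855 for FANCI.

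Fold changes in H1792 ran with the GC content of the genes (Spearman rho = -0.481 across 9165 genes, which are not independent), more than in A549 (0.250 across 9941 genes). The members lie between 36.1% GC (RAD51AP1) and 61.6% GC (PIF1). After a correction for GC content, BLM (-1.38, adjusted p = 0.00843) and FANCD2 (-1.08, adjusted p = 0.00791) were called lower in H1792, and none of the other 5 was. Of all 9914 genes tested, 460 were called lower with this correction. BRCA1 moved to -0.26, PIF1 to -0.33, RAD51AP1 to -0.80, EXO1 to -0.84 and FANCI to -0.60. Without the third RG7112 replicate, PIF1 was called lower (-1.04, adjusted p = 0.0212). The part of GC content in these values was not tested. In A549 all 7 stayed called under the correction.

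**Figure D2:**
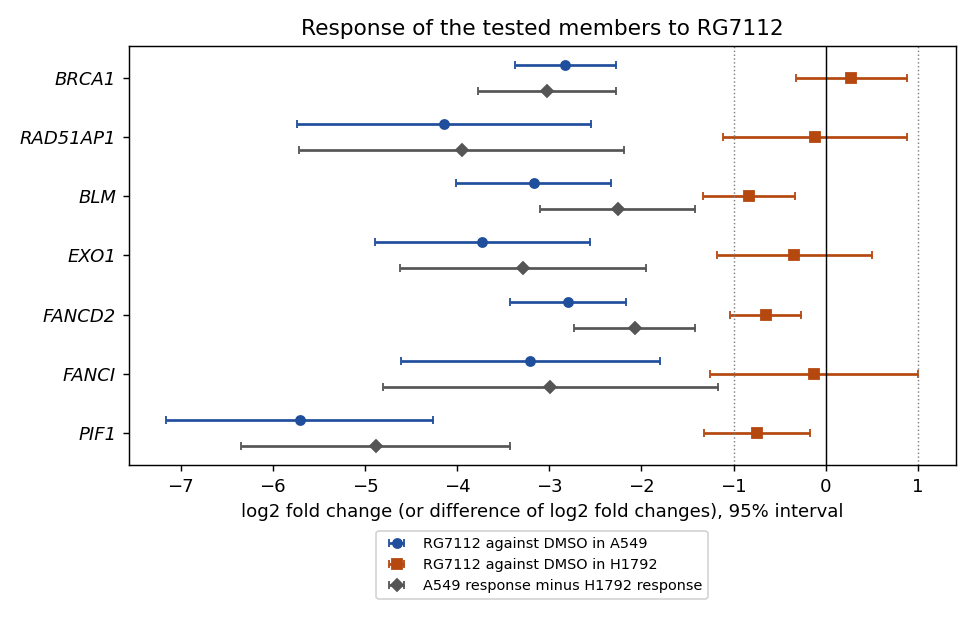
Log2 fold change with RG7112 against DMSO in A549 (circles) and H1792 (squares) and the difference of both (diamonds), with 95% intervals derived from the edgeR test, for the 7 tested members. Dotted lines mark a log2 value of 1 in either direction; in A549 the values run from -5.71 to -2.80, in H1792 from -0.83 to 0.28.

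Whether the cell lines differed in their response was tested as an interaction over the 12 samples, called at an adjusted p under 0.05 alone. The response of all 7 members was lower in A549 than in H1792, and 11.4% of 11666 genes were called in this direction. The difference of the log2 fold changes (A549 minus H1792) was -4.88 ± 0.66 for PIF1 (edgeR adjusted p = 0.000912), -3.95 ± 0.80 for RAD51AP1 (0.00747), -3.29 ± 0.61 for EXO1 (0.00487) and -3.03 ± 0.34 for BRCA1 (0.000293). It was -2.99 ± 0.83 for FANCI (0.0268), -2.26 ± 0.38 for BLM (0.00328) and -2.08 ± 0.30 for FANCD2 (0.00133). FANCI lost its call under the GC correction (adjusted p = 0.0787) and without any of 5 samples in turn: A549 DMSO 1 (adjusted p = 0.0608), A549 RG7112 1 (0.0556), H1792 DMSO 1 (0.0533), H1792 DMSO 3 (0.0572) or H1792 RG7112 2 (0.0566).

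In DMSO the cell lines differed most in BRCA1. Its mean was 69.5 ± 4.8 CPM in A549 and 24.1 ± 0.26 CPM in H1792 (SD, n = 3), a log2 difference of 1.46 ± 0.24 SE (edgeR adjusted p = 0.000450), and it was the only member of 7 called higher in A549, against 20.4% of genes. No member was called lower in A549, against 14.5% of genes. FANCD2 (-0.88, adjusted p = 0.00408) and BLM (-0.71, adjusted p = 0.0344) were lower at an edgeR adjusted p under 0.05, short of the fold change threshold. PIF1 (-0.88, adjusted p = 0.0684) did not reach this adjusted p. An adjusted p under 0.05 in this direction, whatever the fold, was reached by 22% of genes. FANCD2 and PIF1 were called lower with the GC correction (-1.13 and -1.06), as were 2220 of 11666 genes. Both were also called without the third A549 DMSO replicate (-1.01 and -1.12), and FANCD2 without the third H1792 DMSO replicate (-1.01). RAD51AP1 (0.16), EXO1 (-0.27) and FANCI (0.44) overlapped between the lines. The value of FANCI ran from 0.15 (without the third H1792 DMSO replicate) to 1.27 (without the second) when single samples were left out, without a call.

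Per kilobase of exon, BRCA1 was highest of the 8 in A549 DMSO, at 7.57 CPM per kb, followed by PIF1 (6.81), FANCD2 (4.34), EXO1 (4.28), FANCI (3.10), RAD51AP1 (2.92) and BLM (2.59). The replicate ranges of neighbors in this order overlapped, except that BLM lay apart from BRCA2 (0.017). In H1792 DMSO the order was PIF1 (11.95 CPM per kb), FANCD2 (7.60), EXO1 (4.95), BLM (4.05), BRCA1 (2.63), RAD51AP1 (2.47), FANCI (2.13) and BRCA2 (0.011). There PIF1 lay apart from FANCD2, BLM from BRCA1 and FANCI from BRCA2, and the other neighbors overlapped. With RG7112, PIF1 fell to 0.13 CPM per kb in A549, next to RAD51AP1 (0.14), while BRCA1 (1.06) and FANCD2 (0.63) were highest and did not overlap with their next neighbors. PIF1 (7.23 CPM per kb) and FANCD2 (4.92) had the highest means in H1792 RG7112, but PIF1 overlapped with FANCD2 and FANCD2 with EXO1 (3.96).

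The 8 members lay in a wider set of 70 genes of homologous recombination and the Fanconi pathway, listed by role, of which 68 were in the table. Of the 51 tested genes other than the members, 12 were called lower in A549 and none higher, and 43 had a negative value. Of all genes, 3.01% and 3.18% were. The median log2 fold change of the 51 was -1.01, against -3.20 for the 7 members and -0.01 for all genes. Members and listed genes were both chosen with earlier results of these data known, so these medians are descriptions. In H1792, 3 of 49 were called lower (6.12%) and 4 higher, with a median of 0.05, beside the 4.34% and 10.3% of all genes.

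By role, 3 of 8 tested genes of end resection, members included, were called lower in A549: EXO1, BLM and RBBP8 (log2 fold change -3.39), which starts resection. Of 9 genes of loading and strand exchange, 4 were called lower, BRCA1, RAD51AP1 and BARD1 among them. BARD1, the partner of BRCA1, had a value of -2.86. Of 6 genes in the family of XRCC2 and XRCC3, XRCC2 (-2.78) and XRCC3 (-1.50) were called.

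Among 10 antagonists of recombination and helicases, PIF1, MCM8 and HROB were called lower in A549. MCM8, a helicase of recombination-linked synthesis, was measured at 47.9, 55.5 and 59.0 CPM with DMSO and at 12.2, 12.5 and 8.86 CPM with RG7112 (log2 fold change -2.29 ± 0.23, edgeR adjusted p = 0.00208). HROB, which recruits it, had a value of -1.86. None of 7 genes of junction dissolution and resolution was called in either direction.

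In the Fanconi core complex, 4 of 10 tested genes were called lower in A549: FANCA, FANCC (-1.18), FAAP24 (-1.53) and CENPX (-1.58). FANCA, a scaffold of the core ligase, was measured at 48.2, 46.3 and 39.4 CPM with DMSO and at 3.38, 10.7 and 4.71 CPM with RG7112 (log2 fold change -2.92 ± 0.45, edgeR adjusted p = 0.0105). Of 4 tested genes of the FANCD2 and FANCI pair and its ubiquitin cycle, 3 were called lower, the third being UBE2T, the conjugating enzyme. UBE2T was measured at 66.7, 59.9 and 88.5 CPM with DMSO and at 7.56, 10.7 and 13.0 CPM with RG7112 (log2 fold change -2.81 ± 0.29, adjusted p = 0.00236). None of 4 downstream factors was called. The genes given here with a log2 value alone were named because their list had few calls, after their values were seen.

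The count of 12 among the non-members fell to between 5 and 7 without any of 5 samples in turn: each DMSO replicate (5), RG7112 replicate 1 (7) or RG7112 replicate 2 (5). MCM8, UBE2T and FANCA kept their call in each of these fits.

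In H1792 the members were not among the 7 called genes. RTEL1 (log2 fold change -2.21), RECQL5 (-1.72) and RAD54L (-2.61), helicases and a translocase that act on recombination filaments or joints, were called lower. RTEL1 was measured at 79.5, 108 and 115 CPM with DMSO and at 35.0, 16.7 and 15.2 CPM with RG7112 in H1792. RFWD3 (2.32), a ubiquitin ligase, FIGNL1 (1.89), FANCM (2.06) and PARPBP (1.23) were called higher. RFWD3 was measured at 17.3, 21.8 and 22.8 CPM with DMSO and at 65.3, 114 and 134 CPM with RG7112. Under the GC correction the 4 higher calls became 1, with FIGNL1 (edgeR adjusted p = 0.0708), FANCM (0.0841) and PARPBP (0.301) no longer called. The 3 lower calls became 6 of 49 under this correction, with 460 lower and 579 higher among all 9914 genes. Across the alternatives the lower calls ran from 2 to 7, and from 3 to 5 with single samples left out. FANCM and FIGNL1 also lost their calls without RG7112 replicate 2 or 3, FANCM without DMSO replicate 2, and PARPBP without any sample in turn. RTEL1 and FIGNL1 share exons or introns with a gene on the same strand (RTEL1-TNFRSF6B and DDC), so their counts are less certain.

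Of 41 tested genes of other repair pathways, 1 was called lower in A549 (2.44%, beside 3.01% of all genes) and 1 higher (beside 3.18%). MSH6 was called lower (-1.45, edgeR adjusted p = 0.00872) and ERCC3 higher (1.36, adjusted p = 0.0162), with a median of -0.12. The lower count in A549 was 4 with the GC correction, where 349 of all 10739 genes were called lower. It was 3 with the replicate block and GC correction and 3 without a fold change threshold. Without the third replicate of both treatments it was 3 of 43. With single samples left out it was 1 to 2, and the higher count 0 to 2. In H1792, 6 (14.6%) were called lower and 2 higher, ERCC5 by -3.98 (adjusted p = 0.00325), PAXX by -1.05 (0.00528) and MSH6 by 1.68 (0.0147) among them, with a median of -0.28, beside 4.34% and 10.3% of all genes. When single samples were left out these counts ran from 3 to 5 and from 0 to 3, the lowest without RG7112 replicate 2 and without DMSO replicate 2. XRCC6 (-0.93) and UNG (0.99) in A549 and NTHL1 (-0.87) in H1792 had the smallest p of their pathway and did not reach the fold change threshold. ERCC3 lost its call without A549 DMSO replicate 1 or 2 or RG7112 replicate 2, and in H1792 MSH6 without DMSO replicate 2 and PAXX without RG7112 replicate 3. PAXX was also not called with the GC correction (-0.51, adjusted p = 0.0506), with library size only (-0.79), with at least 10 counts in every sample (-0.98) or with the replicate block and GC correction (-0.52), and MSH6 not with the last (adjusted p = 0.0701). ERCC5 overlaps the readthrough gene BIVM-ERCC5 on its strand, between which counting may have split reads.

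**Figure D3:**
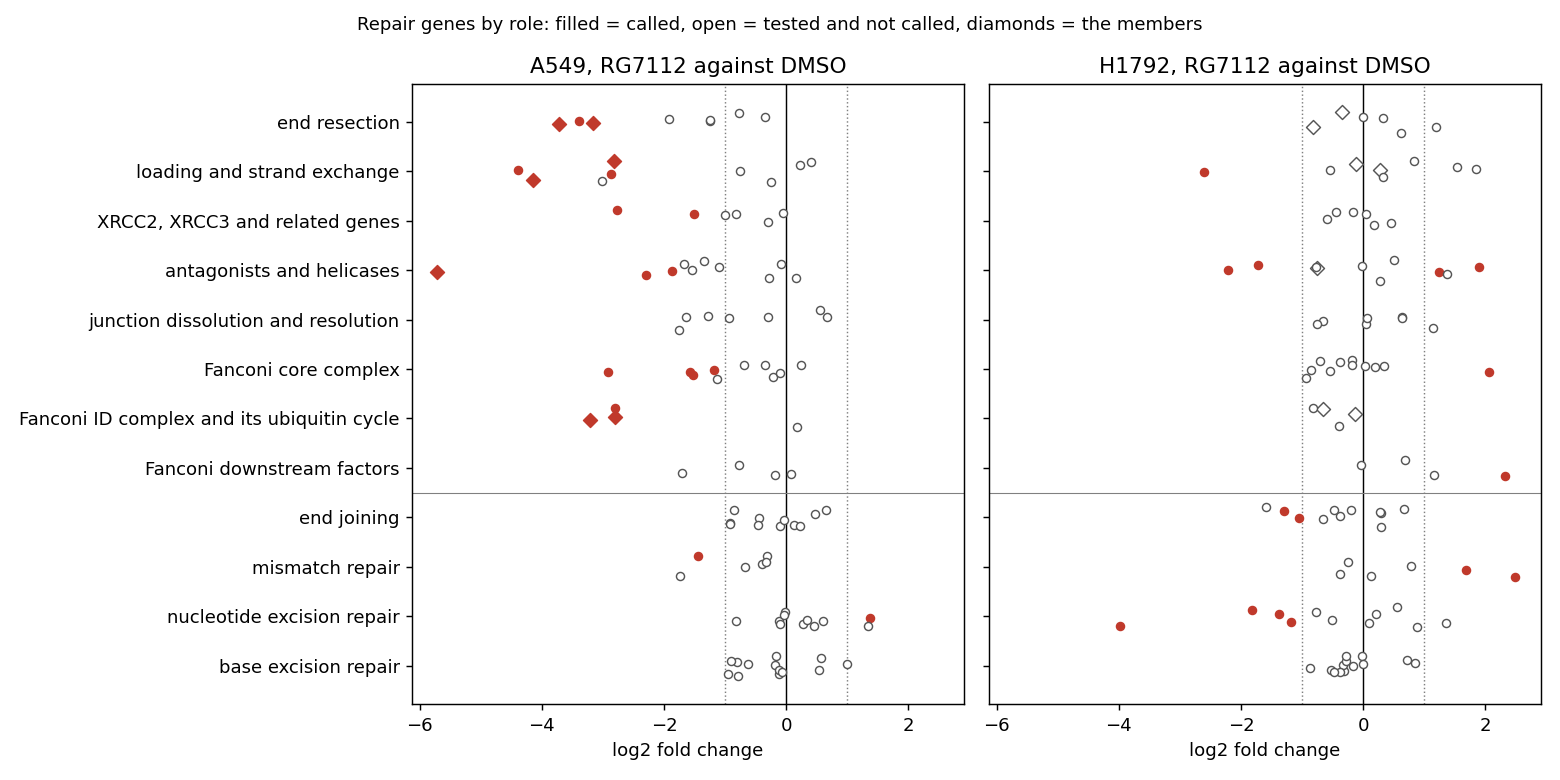
Log2 fold change with RG7112 of each tested repair gene, by role, in A549 (left) and H1792 (right). Filled points were called, open points were not, diamonds are the members and the horizontal line separates the homologous recombination and Fanconi lists from the other pathways. In A549 the filled points above the line are all on the negative side.

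Markers of dividing cells were lower in the same A549 samples. The summed level of 10 proliferation markers was 1451 to 1720 CPM in A549 DMSO and 151 to 156 CPM in A549 RG7112, and that of the 8 members was 187 to 228 and 19.0 to 23.3 CPM. As a share of the marker sum, the members stood at 11.2% to 15.7% with DMSO and at 12.2% to 15.3% with RG7112, so the shares overlapped. In H1792 the marker sum was 1357 to 1377 CPM with DMSO and 1527 to 1696 CPM with RG7112, whereas the members were at 196 to 248 and 143 to 170 CPM. Their share was 14.3% to 18.3% with DMSO and 9.38% to 10.6% with RG7112, without overlap. In A549, 8 of the 10 markers were called lower (median log2 fold change -3.27), MKI67 by -4.35 (edgeR adjusted p = 0.000283), and in H1792 1 was called lower and 2 higher (median 0.17, range -1.31 to 3.42), with MKI67 at 0.05 (adjusted p = 0.760). The part of proliferation in the response of the members was not tested.

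**Figure D4:**
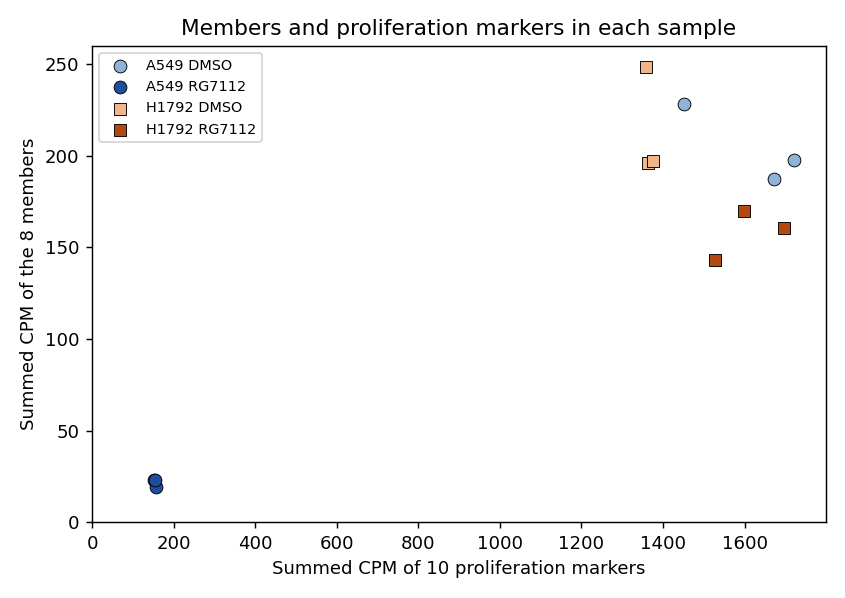
Summed CPM of the 8 members against the summed CPM of 10 proliferation markers, 1 point per sample, linear axes from 0. The A549 RG7112 samples lie at 19.0 to 23.3 and 151 to 156 CPM, apart from the other 9 samples.

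Among the 5 genes most like the member mean, by Pearson r over 12 samples on log2(CPM + 1) centered within each cell line and among 9174 genes, were HMGB1 (0.992), BIRC5 (0.988), MXD3 (0.987) and CENPN (0.986). This is a description, since the samples share the treatment and the cell line. These 4 were called lower in A549, by -1.58, -4.95, -2.996 and -3.06 on the log2 scale in that order. Their direction follows from the way they were picked.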

How the data were processed

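Poly-A RNA of 12 samples was sequenced from both ends (38 nt per the labels; the methods give another length). The authors estimated transcript abundance with kallisto v0.45.0 on the Ensembl GRCh38 transcriptome, summed it to genes with biomaRt annotation and deposited expected counts as whole numbers without normalization. Members and gene lists were chosen with earlier results of these data known. Symbols, positions, length and GC content came from GENCODE v29, which held 18011 of 20595 identifiers. Low genes were removed within each cell line (filterByExpr, minimum count 10, total 15), and the rest were normalized by TMM and fitted with edgeR 4.0.16 (quasi-likelihood, robust, R 4.3.3), with Benjamini-Hochberg adjustment over all genes. Interaction and DMSO contrasts used all 12 samples. CPM are TMM normalized over 12 samples, and permutation tests used log2(CPM + 1). The edgeR test gives no SE, so each SE was the size of the log2 fold change divided by the square root of the F statistic. The 95% intervals of log2 fold changes used this SE and a t quantile. Counting intervals are exact and conditional on the summed counts (95%). Alternatives were DESeq2 1.42.0, limma 3.58.1 (prior count 2), RLE or library size scaling, other filters, no fold change threshold, a joint fit of 12 samples, a replicate block, a GC correction (loess, span 0.5), a pseudocount of 0.1 and leaving out samples. The fits were tested on simulated data. Named genes were the members, the 4 called genes of smallest p per cell line and direction in the other listed genes, the gene of smallest p of each other repair pathway per cell line, the 5 genes most like the member mean, and CDKN1A, MDM2 and MKI67. A few genes that these rules name are not reported here.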

Additional observations from a re-analysis of the deposited data

Results flagged for a closer look

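The response to RG7112 differed between the cell lines, by the edgeR interaction test over 12 samples, for each gene below; values are A549 minus H1792 on the log2 scale. Among the members it was -3.03 for BRCA1, -3.95 for RAD51AP1, -2.26 for BLM, -3.29 for EXO1, -2.08 for FANCD2, -2.99 for FANCI and -4.88 for PIF1. Among the other genes of homologous recombination and the Fanconi pathway it was -2.48 for MCM8, -1.92 for UBE2T, -3.09 for FANCA, -3.95 for RFWD3, -4.33 for FANCM and -2.71 for PARPBP, and 1.94 for RECQL5. In other repair pathways it was -3.05 for MSH6, 2.22 for ERCC3 and 5.40 for ERCC5. Among the genes most like the members, whose direction follows from that choice, it was -1.33 for HMGB1, -4.29 for BIRC5, -2.50 for MXD3 and -2.55 for CENPN. Of the checks, CDKN1A gave 3.40 ± 1.08 SE (edgeR adjusted p = 0.0450), MDM2 3.12 and MKI67 -4.32. Across 11666 genes, 11.4% were called lower and 10.4% higher in this test.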

How the results depend on the processing

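With at least 10 counts in every sample, 2 members were called lower in A549, since only 2 could then be tested; under the other settings 7 were called, and 5 to 7 when samples were left out. In H1792, 2 members were called lower with the GC correction, without a fold change threshold, and with the replicate block and GC correction together, and 0 to 1 when samples were left out. The H1792 member median was -0.80 with the GC correction, -0.086 with library size only, -0.73 with the block and GC correction, and -0.56 to -0.25 when samples were left out. In DMSO, 2 members were lower with the GC correction (0 to 2 with samples left out), and the median was -0.55 (GC correction), -0.011 (library size only), 0.00999 without a filter, where 8 were tested, and -0.49 to -0.13 with samples left out. Interaction calls were 6 to 7. Of all genes, 460 of 9914 in H1792 and 2220 of 11666 in the DMSO comparison were called lower with the GC correction.

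Signs turned in H1792 for BRCA1 (-0.26 GC correction, -0.30 block and GC correction), FANCI (0.14 library size, 0.10 limma-trend, 0.078 replicate block, -0.41 to 0.66 with samples left out), RAD51AP1 (0.14 library size, -0.40 to 0.28 with samples left out), HMGB1 (0.088 library size), MDM2 (0.028 strict filter, 0.22 library size, 0.015 limma-trend, 0.0086 replicate block, -0.33 to 0.23 with samples left out), MKI67 (-0.15 GC correction, -0.021 in the joint fit, -0.16 block and GC correction, -0.033 to 0.18 with samples left out) and CDKN1A (-0.31 to 0.99 with samples left out). In DMSO they turned for RAD51AP1 (-0.098 GC correction, -0.14 to 0.54 with samples left out) and EXO1 (-0.49 to 0.0020 with samples left out). The cause was not tested.

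Library size scaling moved the median of all genes by 0.26 in H1792 and by -0.39 in the interaction, where lower calls went from 29.7% to 13.9% and from 52.3% to 77.0% of calls; with the GC correction they were 44.3% in H1792, where the median moved by -0.10. In the DMSO comparison the median moved by 0.26 and -0.23 under these scalings, and lower calls went from 41.7% to 29.6% and 52.3%. Counts of all called genes ranged from 310 to 526 (A549) and 920 to 1642 (H1792) with samples left out, and were 3384 without a fold change threshold and 528 with the block and GC correction in H1792, and 1637 for the latter in the interaction. Deviations of same-numbered samples had r of 0.188, 0.0805 and 0.339 in A549 and of -0.069 to -0.007 in H1792. In A549 the third replicates of both treatments deviated together (0.339). Each had r of -0.284 to -0.161 with the other replicates of the opposite treatment. Replicates 1 and 2 of opposite treatments had r of 0.178 and 0.130. Whether the third A549 replicates shared a batch was not tested, and the main fits did not read the numbers as pairs. With the replicate block 7 members were called in A549, 0 in H1792 and 7 in the interaction, the other listed genes called lower in A549 were 8 and those higher in H1792 were 1. RAD51AP1 and PIF1 had the lowest counts of the tested members in A549 RG7112 (5 and 7 in sum).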

Other observations

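USP1, the enzyme that removes ubiquitin from the FANCD2 and FANCI pair, was picked out after its values were seen because it was as low as BRCA2: it had 0 counts in 9 of 12 samples, 1 count in 2 and 5 counts in 1. It passed no filter and was not tested.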
